A study of Drosophila melanogaster with 7 samples.

Results

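Of the 17481 genes in the deposited table, 9 encode the receptors described here, chosen by name as receptors of peptides that the gut makes. They are NPFR, sNPF-R, AstA-R1, AstC-R1, AstC-R2, TkR99D, TkR86C, CCHa1-R and CCHa2-R, and each was found under its own symbol. RNA had been sequenced from sorted, GFP-labelled intestinal stem cells, elsewhere in the labels called progenitor cells, of the Drosophila melanogaster midgut, in 4 ScOE libraries from flies that overexpressed Sc and 3 Ctrl libraries labelled wild type. All flies were adults at day 2, and about 10000 cells went into each library. Sc is the proneural transcription factor scute; the driver, transgene and sex of the flies are not given in the sources used here, and neither is whether the libraries came from separate groups of animals, so p-values measure the spread between these libraries, which may be partly technical.

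Enteroendocrine cells of the midgut epithelium release peptide hormones, and their precursors descend from the intestinal stem cells. The hormones act on G protein-coupled receptors, which cross the membrane repeatedly and pass the signal to heterotrimeric G proteins inside the cell. A receptor gene can be active in cells that also make hormones, in enterocytes, in visceral muscle, in neurons or in distant organs.

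Levels are FPKM, a unit corrected for transcript length and for the mapped fragments of a library, which can be compared between genes. The 7 libraries differed in depth and in summed FPKM, which was higher in every Ctrl library than in any ScOE library. By the most frequent ratio among values of 0.001 to 0.1 FPKM, held by 25.4% to 29.7% of those genes, the Ctrl libraries had 0.451 to 0.611 of the depth of ScOE 3 and the other ScOE libraries 0.853 to 1.04. The 11 enteroendocrine markers summed to 1917 to 5338 FPKM in ScOE and to 70.1 to 681 FPKM in Ctrl. The 6 stem cell and enteroblast markers, which check the label of the sort, summed to 474 to 561 FPKM in ScOE and to 550 to 749 FPKM in Ctrl. The sum hid differences between members. Sox21a was lower in ScOE without overlap, with means of 46.8 FPKM in ScOE and 117 FPKM in Ctrl. Dl had means of 41.9 FPKM in ScOE and 21.6 FPKM in Ctrl. For Dl and all other members besides Sox21a the groups overlapped. In bulk libraries, a larger share of cells with a receptor and more receptor RNA per cell cannot be told apart.

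The overexpressed gene sc was at 190, 122, 170 and 66 FPKM in ScOE 1 to 4, against 2.44, 0.978 and 0.886 FPKM in Ctrl 1 to 3, in the direction that the labels give. The table does not separate native from transgenic RNA. ScOE 3 stood apart in its markers of visceral muscle. The 7 muscle markers summed to 9.55, 8.13, 106 and 7.17 FPKM in ScOE 1 to 4 and to 8.74, 17.0 and 20.6 FPKM in Ctrl 1 to 3. All of these markers besides how were highest in ScOE 3. Mp20 was at 0, 0, 22.8 and 0 FPKM in ScOE 1 to 4, against 0, 0.113 and 1.72 FPKM in Ctrl 1 to 3. The marker how was at 8.29, 6.70, 6.68 and 6.32 FPKM in ScOE 1 to 4, against 7.18, 15.9 and 13.5 FPKM in Ctrl 1 to 3. It made up most of the sum in every library but ScOE 3. AstA-R1, AstC-R1, AstC-R2, TkR86C and CCHa1-R were each highest in ScOE 3, as were 7 of the 9 peptide genes described below. The part of muscle RNA in these values was not tested; values without ScOE 3 are given beside those receptors.

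NPFR stood apart from the other receptors. In ScOE it was the most abundant of the 9 in every library, and in Ctrl it was under 1 FPKM. Of the others, CCHa1-R and AstA-R1 also passed the test as higher in ScOE, at levels of a few FPKM or less. AstC-R1, AstC-R2 and sNPF-R had higher means in ScOE but were too low for the test or missed its threshold. TkR99D, TkR86C and CCHa2-R were close to 0 in both groups.

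The test was limma on log2(FPKM + 1), limited to genes that reached 1 FPKM in 3 libraries or more. Of the 9 receptors 4 met that filter, namely NPFR, sNPF-R, AstA-R1 and CCHa1-R. Of these, 3 were called higher in ScOE and none lower. Over all 8421 tested genes, 17.6% were called higher in ScOE and 21.3% lower, 39.0% in either direction. NPFR, AstA-R1 and CCHa1-R reached the filter through the ScOE libraries alone, so their count is not support for a rise of receptors as a class. A fit with no filter took in all 9 receptors among 14782 genes above 0 in any library. There 4 receptors were called higher (NPFR, AstC-R1, AstC-R2 and CCHa1-R) and none lower, against 10.9% of those genes higher and 10.9% lower, 21.8% in either direction. Without regard to the test, the groups did not overlap for 5 of the 9, all higher in ScOE, where 15.8% of the 14782 genes were higher without overlap and 16.7% lower, 32.5% in all.

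**Figure D1:**
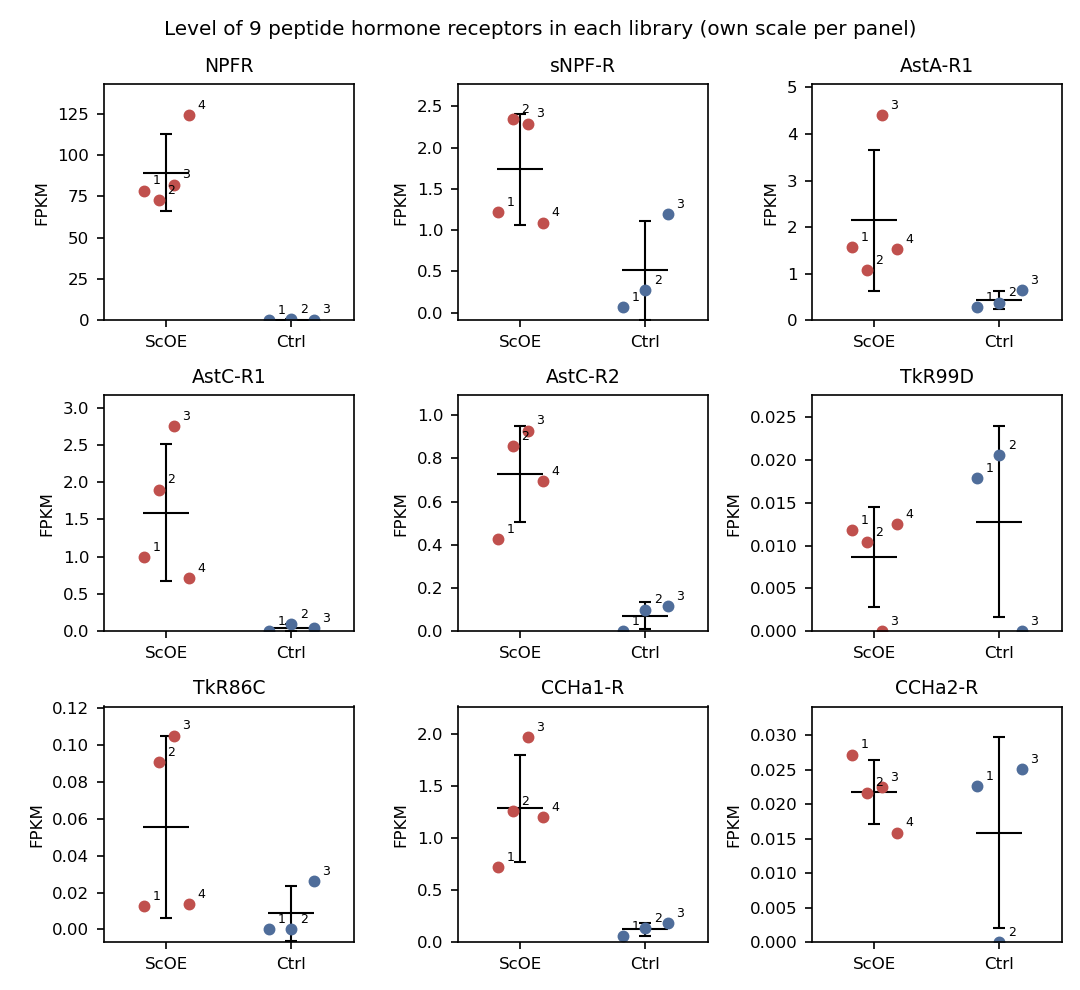
FPKM of each receptor in the ScOE libraries (red) and the Ctrl libraries (blue), numbered by replicate, with the mean and SD as black bars and a separate vertical scale in each panel. NPFR lies between 72.7 and 124 FPKM in ScOE, while no other receptor exceeds 4.40 FPKM in any library.

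NPFR (FBgn0037408) encodes the receptor of neuropeptide F, a relative of the vertebrate neuropeptide Y receptors. The gene lies on chromosome 3R of BDGP6 at 6187315 to 6195403, plus strand, and the annotation places no other gene over it. NPFR was at 78.4, 72.7, 82.1 and 124 FPKM in ScOE 1, 2, 3 and 4, against 0.107, 0.564 and 0.432 FPKM in Ctrl 1, 2 and 3. Every ScOE library was far above every Ctrl library, and ScOE 4 was the highest. The mean was 89.3 ± 23.5 FPKM in ScOE (SD, n = 4) and 0.368 ± 0.235 FPKM in Ctrl (SD, n = 3), a ratio of 243. The log2 fold change was 6.03 ± 0.22 (SE, n = 4 and 3; adjusted p = 6.38e-06 in limma), and NPFR passed in all 20 alternatives, with an adjusted p of 3.71e-07 to 0.00109.

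Among all genes of the table, NPFR ranked 1156, 1277, 1163 and 730 by level in ScOE 1 to 4, against 9876, 8334 and 9062 in Ctrl 1 to 3. It made up 86.8% to 95.9% of the summed FPKM of the 9 receptors in ScOE libraries and 16.1% to 35.8% in Ctrl libraries. The other 8 receptors together summed to 4.99, 7.56, 12.5 and 5.27 FPKM in ScOE 1 to 4 and to 0.459, 1.01 and 2.24 FPKM in Ctrl 1 to 3. NPFR was thus lowest in ScOE 2, whereas the rest of the receptors together were lowest in ScOE 1 and highest in ScOE 3.

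The tested genes most like NPFR were E(spl)mgamma-HLH, Fie, ventrally-expressed-protein-D, GstZ2 and sna. Likeness was the root mean square difference between log2(FPKM + 1) profiles over the 7 libraries, after each gene's mean had been subtracted. The genes were picked on these same libraries, so features they share with NPFR follow from the choice. It was 0.16 for E(spl)mgamma-HLH, a repressor of the Enhancer of split complex, 0.31 for Fie, 0.36 for ventrally-expressed-protein-D, 0.49 for GstZ2, a zeta-class glutathione S-transferase, and 0.53 for sna, a snail family repressor. E(spl)mgamma-HLH was, like NPFR, highest in ScOE 4 and lowest in ScOE 2 among the ScOE libraries (566, 512, 525 and 647 FPKM in ScOE 1 to 4, against 6.58, 7.93 and 7.29 FPKM in Ctrl 1 to 3). The ranking depended on the pseudocount, since 1 of the 5 was still among the nearest 5 with a pseudocount of 0.1, 3 with 0.5 and 2 with 5.

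**Figure D2:**
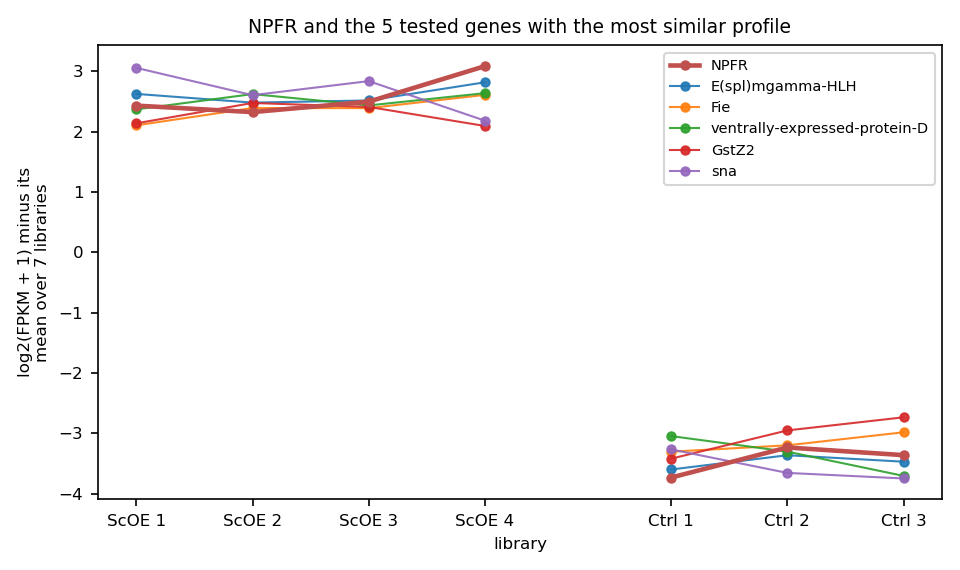
log2(FPKM + 1) of NPFR (thick red line) and its 5 most similar genes, each minus its own mean over the 7 libraries, with the 4 ScOE libraries on the left and the 3 Ctrl libraries on the right. The genes share the step between the groups, for which they were picked, and NPFR is highest in ScOE 4.

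sNPF-R (FBgn0036934; chromosome 3L, 20058511 to 20089007, minus strand) encodes the receptor of short neuropeptide F, a peptide known for its part in feeding and growth. sNPF-R was at 1.22, 2.34, 2.29 and 1.09 FPKM in ScOE 1 to 4, against 0.0687, 0.276 and 1.19 FPKM in Ctrl 1 to 3. The groups overlapped, because Ctrl 3 was above ScOE 4. The log2 fold change was 0.89 ± 0.30 (SE; 95% interval 0.18 to 1.60; adjusted p = 0.0532 in limma), which missed the threshold; without Ctrl 3 it was 1.19 and passed (adjusted p = 0.0176). The summed enteroendocrine markers in Ctrl 1 to 3 were 70.1, 540 and 681 FPKM, but most of the sum in Ctrl 3 was NPF. Without NPF they were 43.4, 378 and 122 FPKM, and 8 of the 11 markers were higher in Ctrl 2 than in Ctrl 3. Among the Ctrl libraries, all muscle markers besides how were highest in Ctrl 3. Of these, Mlc2 was at 1.01, 0.526 and 2.50 FPKM and Tm2 at 0.0758, 0.117 and 1.08 FPKM in Ctrl 1 to 3. The part of either set of markers in the value of sNPF-R was not tested. The difference between NPFR and sNPF-R within a library, on the log2(FPKM + 1) scale, was 5.05 ± 0.64 in ScOE (SD, n = 4) and -0.09 ± 0.47 in Ctrl (SD, n = 3). A two-sided exact permutation of the 7 group labels, which has 35 outcomes, gave p = 0.0286, the smallest value possible. After adjustment over the 4 receptor pairs compared it was 0.0571, which is above 0.05. A pair at the smallest value passes this adjustment only if most of the other pairs are at it too. The adjusted p therefore cannot decide on this pair alone.

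The allatostatin receptors belong to separate families. AstA-R1 is a relative of vertebrate galanin receptors and binds allatostatin A, while AstC-R1 and AstC-R2 are relatives of somatostatin receptors and bind allatostatin C. AstA-R1 (FBgn0266429) lies on chromosome X at 3574536 to 3666724, plus strand. It was at 1.57, 1.08, 4.40 and 1.53 FPKM in ScOE 1 to 4, against 0.291, 0.381 and 0.651 FPKM in Ctrl 1 to 3. The groups did not overlap, and ScOE 3 was far above the other ScOE libraries. The log2 fold change was 1.03 ± 0.33 (SE, n = 4 and 3; adjusted p = 0.0426 in limma). Without ScOE 3 it was 0.73 and still passed (adjusted p = 0.0263). The call was lost without ScOE 1 (0.0652), ScOE 4 (0.0625), Ctrl 1 (0.102), Ctrl 2 (0.109) or Ctrl 3 (0.0645), each an adjusted p in limma.

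AstC-R1 (FBgn0036790; chromosome 3L, 18560258 to 18576326, plus strand) and AstC-R2 (FBgn0036789; 18485137 to 18502557, minus strand) lie 57700 bases apart on the same chromosome arm. AstC-R1 was at 0.999, 1.90, 2.75 and 0.718 FPKM in ScOE 1 to 4, against 0, 0.101 and 0.0474 FPKM in Ctrl 1 to 3. AstC-R2 was at 0.427, 0.857, 0.928 and 0.693 FPKM in ScOE 1 to 4, against 0, 0.101 and 0.118 FPKM in Ctrl 1 to 3. For both genes the groups did not overlap, and both were listed at 0 in Ctrl 1. Neither reached 1 FPKM in 3 libraries, so neither was in the main test. In the fit with no filter the log2 fold change was 1.24 ± 0.27 for AstC-R1 (SE; adjusted p = 0.0213 in limma) and 0.68 ± 0.11 for AstC-R2 (SE; adjusted p = 0.00772). Without ScOE 3 the differences of mean log2(FPKM + 1) were 1.04 and 0.62. Within a library AstC-R1 exceeded AstC-R2 by 0.53 ± 0.39 in ScOE (SD, n = 4) and by -0.03 ± 0.05 in Ctrl (SD, n = 3) on that scale. That contrast had p = 0.0571 in the exact permutation test and 0.0762 after adjustment over the 4 pairs, and it was 0.41 without ScOE 3, against 0.56 with it. How reads shared between related genes were counted is not given in the sources used here.

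CCHa1-R and CCHa2-R are relatives of vertebrate bombesin receptors and are named for the peptides CCHamide-1 and CCHamide-2. CCHa1-R (FBgn0050106; chromosome 2R, 17646848 to 17665068, minus strand) was at 0.723, 1.26, 1.97 and 1.20 FPKM in ScOE 1 to 4, against 0.0588, 0.135 and 0.184 FPKM in Ctrl 1 to 3. All ScOE libraries were above all Ctrl libraries. The mean was 1.29 ± 0.514 FPKM in ScOE (SD, n = 4) and 0.126 ± 0.0632 FPKM in Ctrl (SD, n = 3), a ratio of 10.2. The log2 fold change was 1.00 ± 0.20 (SE; adjusted p = 0.00753 in limma), and 0.86 without ScOE 3 (adjusted p = 0.0148). With quantile normalization it was 0.43 and no longer passed (adjusted p = 0.135).

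CCHa2-R (FBgn0033058; chromosome 2R, 6050949 to 6068680, plus strand) lay at 0.0159 to 0.0272 FPKM in ScOE and at 0, 0.0226 and 0.0251 FPKM in Ctrl. These ranges overlapped, and the fit with no filter gave a log2 fold change of 0.01 ± 0.02 (SE; adjusted p = 0.746 in limma). Within a library the log2(FPKM + 1) of CCHa1-R exceeded that of CCHa2-R by 1.14 ± 0.32 in ScOE (SD, n = 4) and by 0.15 ± 0.08 in Ctrl (SD, n = 3). The exact permutation p of this contrast was 0.0286, the smallest possible, and 0.0571 after adjustment over the 4 pairs. The limit given for the pair of NPFR and sNPF-R holds here too.

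TkR99D is known as the main receptor of the tachykinins, and TkR86C responds to the related peptide natalisin. TkR99D (FBgn0004622; chromosome 3R, 29950796 to 29969447, minus strand) was at 0.0118, 0.0104, 0 and 0.0125 FPKM in ScOE 1 to 4, against 0.0179, 0.0205 and 0 FPKM in Ctrl 1 to 3. Multiplied by relative depth, which was itself estimated from values this low, the 5 values above 0 came to between 0.0106 and 0.0109. The groups overlapped, and both held a library at 0. TkR86C (FBgn0004841; chromosome 3R, 10737592 to 10751228, minus strand) was at 0.0128, 0.0905, 0.105 and 0.0137 FPKM in ScOE 1 to 4, against 0, 0 and 0.0261 FPKM in Ctrl 1 to 3. ScOE 2 and ScOE 3 were higher than the rest, by 8.1 and 9.1 times the lowest depth-scaled value above 0, and the groups overlapped. The fit with no filter gave log2 fold changes of -0.01 ± 0.02 for TkR99D and 0.06 ± 0.04 for TkR86C (SE; adjusted p = 0.817 and 0.31 in limma). Without ScOE 3 the difference of TkR86C was 0.04. The contrast between these receptors within a library had p = 0.286 in the exact permutation test, also after adjustment.

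By mean level in ScOE the order was NPFR, AstA-R1, sNPF-R, AstC-R1, CCHa1-R, AstC-R2, TkR86C, CCHa2-R and TkR99D. NPFR was clear of AstA-R1. The receptors from AstA-R1 to AstC-R2 overlapped with their neighbours in the order, with means of 2.14 to 0.726 FPKM. AstC-R2, at 0.427 FPKM or more in every ScOE library, was clear of TkR86C, at 0.105 FPKM or less. TkR86C and CCHa2-R overlapped, and TkR99D was below both in every ScOE library. In ScOE 1 and ScOE 4, TkR99D and TkR86C were each at 1.0 times their own lowest depth-scaled value above 0. Their order in those libraries does not show a difference in level. In Ctrl the order was sNPF-R, AstA-R1, NPFR, CCHa1-R, AstC-R2, AstC-R1, CCHa2-R, TkR99D and TkR86C. There the means of the first 3, at 0.512, 0.441 and 0.368 FPKM, came from overlapping libraries.

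Most of the peptide genes were far more abundant than the receptors named for them. The peptide genes NPF, AstA, AstC, Tk, CCHa1 and CCHa2 ranged from 76.3 FPKM (AstA in ScOE 1) to 2535 FPKM (AstC in ScOE 3) in ScOE, and from 0.534 FPKM (AstA in Ctrl 1) to 559 FPKM (NPF in Ctrl 3) in Ctrl. NPF itself was at 204, 474, 1310 and 958 FPKM in ScOE 1 to 4, against 26.7, 162 and 559 FPKM in Ctrl 1 to 3. NPF overlapped between the groups where NPFR did not, and its log2 fold change of 2.12 ± 1.06 did not pass (adjusted p = 0.154 in limma); it was 3.14 without Ctrl 3, which passed (adjusted p = 0.0434), 0.97 without Ctrl 1 (0.405) and 1.74 without ScOE 3 (0.297). It also passed with equal FPKM totals, library weights or a replicate block (adjusted p of 0.0292, 0.0483 and 0.0222). Of the 8 peptide genes tested, 6 rose and 1 fell, where 17.6% of all tested genes rose and 21.3% fell. The counts were 6 and 1 without ScOE 3 as well. Among the 6 that rose, sNPF reached the filter through the ScOE libraries alone.

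sNPF, the gene of short neuropeptide F, was as low as its receptor, at 1.04, 2.44, 3.76 and 3.16 FPKM in ScOE 1 to 4, against 0, 0.415 and 0.744 FPKM in Ctrl 1 to 3. It rose by a log2 fold change of 1.34 ± 0.33 (SE; adjusted p = 0.0165), and by 1.02 with quantile normalization, which did not pass (adjusted p = 0.0523). The gene that fell was natalisin, at 1.99, 2.02, 1.47 and 0.771 FPKM in ScOE 1 to 4, against 13.0, 5.13 and 4.28 FPKM in Ctrl 1 to 3 (log2 fold change -1.61 ± 0.37, SE; adjusted p = 0.012). With equal FPKM totals it was -0.97 and did not pass (adjusted p = 0.0535). An antisense RNA gene overlaps the exons of natalisin, and the use of strand is not given, so this value is uncertain. AstCC, a relative of AstC, stayed at 0.0293 to 0.106 FPKM in ScOE and 0.0505 to 0.174 FPKM in Ctrl and was not tested.

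**Figure D3:**
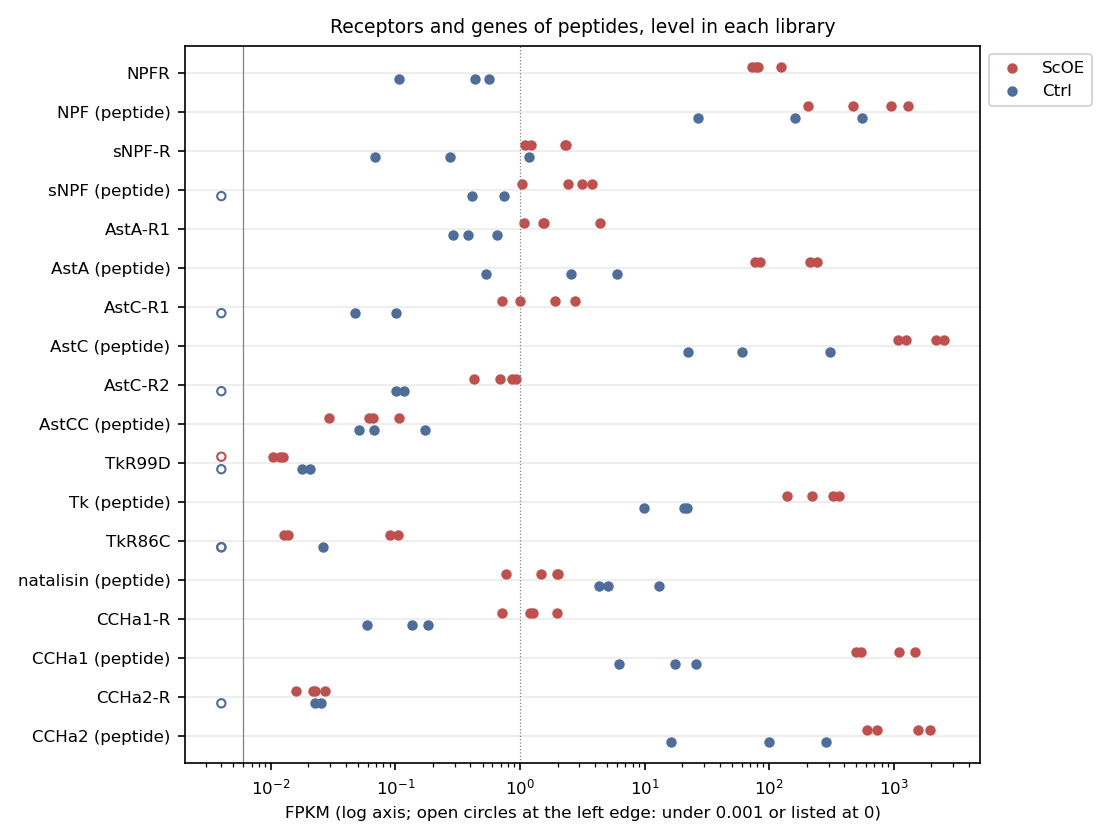
FPKM on a log axis of each receptor and of the peptide genes in the 4 ScOE libraries (red) and 3 Ctrl libraries (blue), one point per library, with open circles at the left edge for values under 0.001 or listed at 0. Tk and CCHa2 are at 9.97 FPKM or more in every library, while TkR99D and CCHa2-R stay at 0.0272 FPKM or less.

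The 30 other peptide and protein hormone receptors were mostly low. Of these, 23 were under 1 FPKM in every library, as were 4 of the 9, and 3 were tested. TrissinR and ETHR rose and Dh44-R2 did not pass. TrissinR, the receptor of the peptide trissin, was at 2.24, 3.20, 4.25 and 2.76 FPKM in ScOE 1 to 4, against 0.0183, 0.147 and 0 FPKM in Ctrl 1 to 3 (log2 fold change 1.94 ± 0.19, SE; adjusted p = 0.00036 in limma). ETHR, the receptor of ecdysis triggering hormone, was at 0.997, 1.71, 1.91 and 1.14 FPKM in ScOE 1 to 4, against 0, 0.0733 and 0.128 FPKM in Ctrl 1 to 3 (log2 fold change 1.18 ± 0.18, SE; adjusted p = 0.00237). For both, every ScOE library was above every Ctrl library, and both reached the filter through the ScOE libraries alone. Dh44-R2, a receptor of diuretic hormone 44, was at 5.55 ± 1.20 FPKM in ScOE (SD, n = 4) and 5.23 ± 1.41 FPKM in Ctrl (SD, n = 3), with a log2 fold change of 0.08 (95% interval -0.42 to 0.58; adjusted p = 0.786). With no filter all 30 were fitted, of which 6 rose and none fell, where 10.9% of all genes in that fit rose and 10.9% fell, and their median log2 fold change was 0.03, against -0.01 for all 14782 genes and 0.89 for the 9 receptors. NPFR ranked first of all 39 receptors in each ScOE library, against ranks 10, 2 and 8 in Ctrl 1, 2 and 3.

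**Figure D4:**
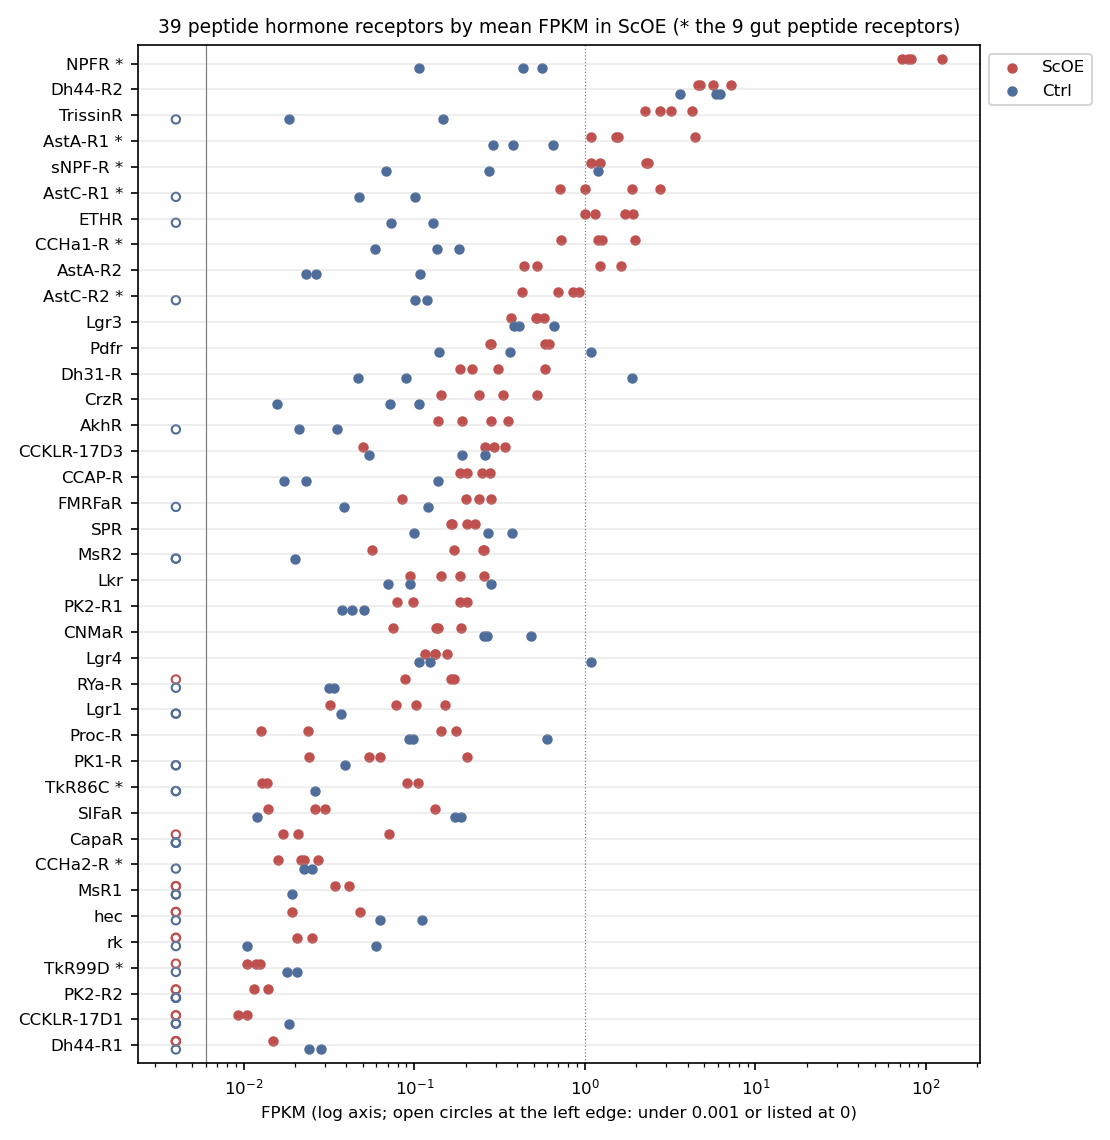
FPKM on a log axis of 39 peptide hormone receptors in the 4 ScOE libraries (red) and 3 Ctrl libraries (blue), ordered from the highest mean in ScOE at the top, with stars for the 9 receptors of gut peptides and a dotted line at 1 FPKM. NPFR is set apart at the top in ScOE, and Dh44-R2 is at a like level in both groups.

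Peptide receptors signal through G proteins made of an alpha, a beta and a gamma subunit. Of 10 tested subunit genes 3 rose, 1 fell and 6 did not pass, where 39.0% of all tested genes were called in either direction. Their median change was 0.23 on the log2 scale, against -0.08 over the tested genes. Among the 3 that rose, Ggamma30A and Gbeta5 reached the filter through the ScOE libraries alone. The count of rises is therefore not support for a rise of subunits as a class. Ggamma30A rose to 8.29, 10.1, 12.3 and 6.86 FPKM in ScOE 1 to 4, against 0.0744, 0.337 and 0.198 FPKM in Ctrl 1 to 3 (log2 fold change 3.09 ± 0.20, SE; adjusted p = 7.24e-05 in limma). Gbeta5, which is known to pair with RGS proteins of the R7 class, rose to 9.96, 10.3, 18.3 and 15.9 FPKM in ScOE 1 to 4, against 0.678, 0.736 and 0.863 FPKM in Ctrl 1 to 3 (log2 fold change 3.01 ± 0.23, SE; adjusted p = 0.000122). Galphao rose to 21.0 ± 4.14 FPKM in ScOE, against 4.92 ± 0.399 FPKM in Ctrl (SD, n = 4 and 3; adjusted p = 0.000241). Galphai, an inhibitory alpha subunit, fell to 68.4 ± 3.97 FPKM in ScOE, against 102 ± 9.30 FPKM in Ctrl (log2 fold change -0.57 ± 0.11, SE; adjusted p = 0.0065), but its log2 fold change was 0.29 with equal FPKM totals. That scaling moved the median over the tested genes from -0.08 to 0.68, and 9 subunit genes were then called higher and none lower.

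Among 15 effectors of G proteins, all of them tested, 5 rose, 4 fell and 6 did not pass, where 17.6% of all tested genes rose and 21.3% fell, and the median change was -0.02 on the log2 scale. Of the 5 adenylyl cyclase genes, whose products make cyclic AMP, 2 rose and 1 fell, and rut and Ac13E did not pass (adjusted p = 0.112 and 0.94 in limma). Those that rose, Ac78C and Ac3, reached the filter through the ScOE libraries alone. The count of rising effectors is therefore not support for a rise of effectors as a class. Ac78C rose to 8.39 ± 2.39 FPKM in ScOE, against 0.326 ± 0.144 FPKM in Ctrl (SD, n = 4 and 3; adjusted p = 0.000148 in limma), and Ac3 rose to 3.99 ± 0.670 FPKM, against 0.622 ± 0.319 FPKM (adjusted p = 0.000591). Ac76E fell to 2.34 ± 0.266 FPKM in ScOE, against 11.4 ± 2.59 FPKM in Ctrl (log2 fold change -1.87 ± 0.16, SE; adjusted p = 0.00023). Pka-R2, a regulatory subunit of protein kinase A, rose by 1.12 ± 0.22 on the log2 scale (adjusted p = 0.0064). CrebB, a transcription factor that responds to cyclic AMP, and Itpr, the calcium channel opened by inositol trisphosphate, fell by 0.86 and 0.47 on the log2 scale (adjusted p = 0.0107 and 0.0357), with log2 fold changes of 0.00 and 0.06 with equal FPKM totals. Itpr lost its call without ScOE 1, 2 or 3 or Ctrl 2 or 3 (adjusted p up to 0.127). The number of effectors called lower was 2 without ScOE 1, ScOE 2, Ctrl 2 or Ctrl 3.

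Of 7 genes that regulate G protein signalling or silence receptors, 4 were tested. The arrestin gene krz rose and loco, an RGS protein gene that shortens G protein signals, fell, while Gprk1 and Gprk2 did not pass; the median log2 fold change was 0.00. For krz the levels were 12.1 ± 2.35 FPKM in ScOE and 8.16 ± 0.580 FPKM in Ctrl (SD, n = 4 and 3; adjusted p = 0.0396 in limma), a call that was lost without ScOE 1, 2 or 3 or Ctrl 1, 2 or 3 (adjusted p up to 0.0903). The other gene, loco, was at 152, 122, 118 and 117 FPKM in ScOE 1 to 4, against 307, 380 and 371 FPKM in Ctrl 1 to 3 (log2 fold change -1.46 ± 0.14, SE; adjusted p = 0.00036).

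**Figure D5:**
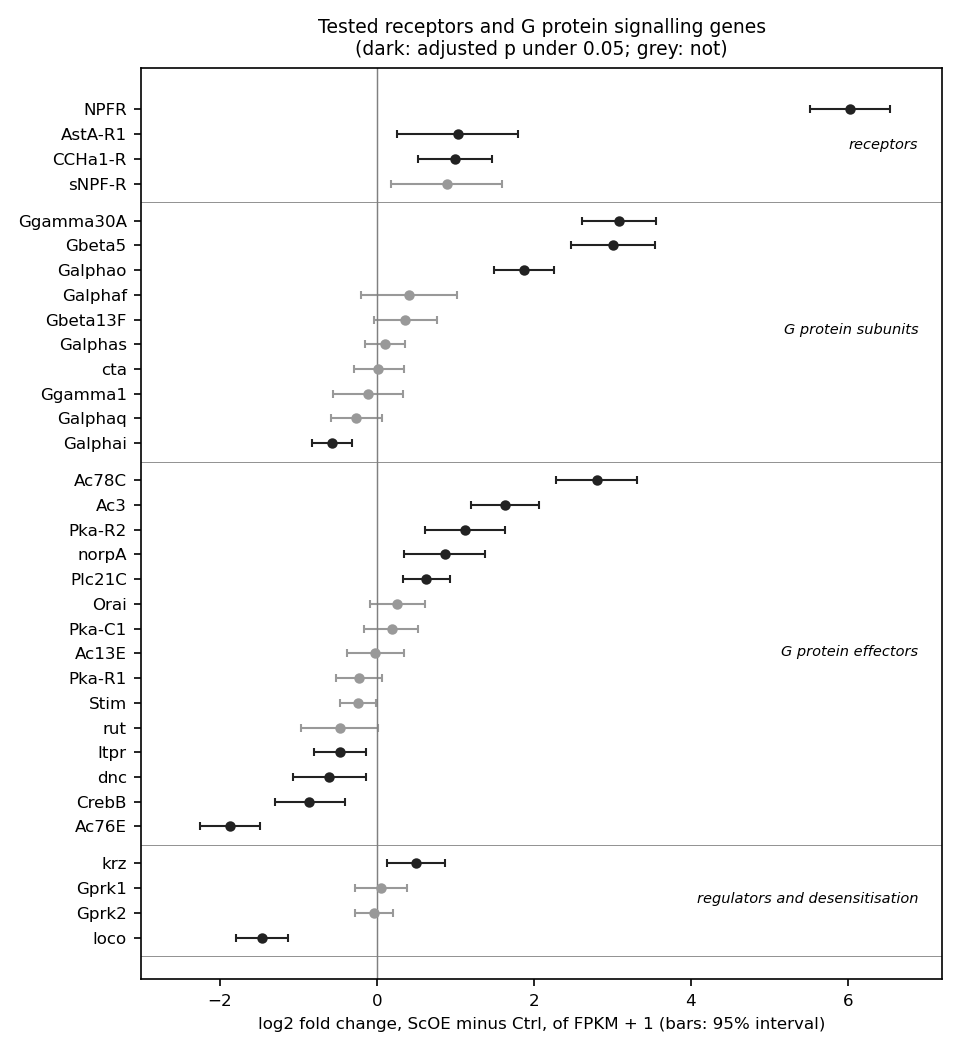
Log2 fold change of FPKM + 1, ScOE minus Ctrl, with 95% intervals from limma, for the tested receptors and the tested genes of G protein subunits, effectors and regulators, dark where the adjusted p is under 0.05 and grey where it is not. NPFR, at 6.03, lies beyond the other genes shown, of which Ggamma30A, at 3.09, is the next.

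Each other receptor that passed the filter also had its most similar genes. They were Gycbeta100B, a subunit of soluble guanylyl cyclase, tadr and CG32052 for sNPF-R, at differences of 0.13 to 0.14, and CG44245, CG14787 and CG10311 for AstA-R1, at 0.21 to 0.27. For CCHa1-R they were CG13318, CCAP, the gene of crustacean cardioactive peptide, and CG14762, at 0.06 to 0.08. CCAP was at 1.43, 2.41, 2.95 and 2.31 FPKM in ScOE 1 to 4, against 0.563, 0.756 and 0.633 FPKM in Ctrl 1 to 3, and had its lowest and highest ScOE libraries where CCHa1-R had them. These genes too were picked on the same libraries, so shared high or low libraries follow from the choice. Low genes have small profiles on this scale, so their differences are small as well.

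Markers of other cells that could carry these receptors were compared beside them. The 7 neuron markers summed to 20 to 22 FPKM in ScOE and to 6.06 to 7.50 FPKM in Ctrl. All 3 that were tested (elav, onecut and fne) rose, where 17.6% of all tested genes rose. Of these, onecut reached the filter through the ScOE libraries alone. The marker para was not in the main test and overlapped, with means of 0.195 FPKM in ScOE and 0.241 FPKM in Ctrl. The transmitter genes were low, with ChAT at 0.335 to 0.554 FPKM in ScOE and 0.0691 to 0.1 FPKM in Ctrl, and VGlut at 0.0176 to 0.0441 FPKM in ScOE and at 0.0096 FPKM or less in Ctrl. Gad1 was at 0.287, 0.493, 0.286 and 1.53 FPKM in ScOE 1 to 4, against 0, 0.0194 and 0.0456 FPKM in Ctrl 1 to 3, a level like that of several receptors. None of these 3 was in the main test; with no filter ChAT was called higher (adjusted p = 0.00826 in limma), and Gad1 and VGlut did not pass (adjusted p = 0.122 and 0.131). The 8 enterocyte markers summed to 201 to 8126 FPKM in ScOE and to 519 to 16267 FPKM in Ctrl, sums that were mostly the trypsin genes betaTry and alphaTry in the highest libraries. Of these 8 markers 3 fell (Myo31DF, Jon99Fi and Jon99Fii) and none rose, where 21.3% of all tested genes fell and 17.6% rose. Of the 11 enteroendocrine markers, all of them tested, 10 rose, against the same 17.6%. The homeodomain gene pros, the standard marker of enteroendocrine cells, was at 45.4, 49.6, 43.1 and 60.9 FPKM in ScOE 1 to 4, against 1.19, 2.18 and 1.75 FPKM in Ctrl 1 to 3. It was highest in ScOE 4, as NPFR was, whereas 9 of the 11 markers were highest in ScOE 3 and 1 in ScOE 2. The part of any of these cell types in the receptor values was not tested.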

How the data were processed

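Per the labels, GFP-positive midgut cells were sorted after elastase digestion and their RNA was amplified before library preparation. Per the submitters' processing notes, TopHat2 2.0.10, Cufflinks 2.2.1 and the build BDGP6 were used. The authors deposited FPKM per gene and library; further scaling and use of strand are not given in the sources used here. FPKM keeps no read numbers, so absolute depth is unknown. Symbols and positions come from the BDGP6.54 annotation.

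The receptors and gene lists were chosen with earlier results of these data known. limma 3.58.1 in R 4.3.3 was fitted to log2(FPKM + 1) of genes that reached 1 FPKM in 3 libraries or more, two-sided and with its trend option. Benjamini-Hochberg adjustment covered all 8421 tested genes, with a threshold of 0.05. Fold changes, ScOE minus Ctrl, are on this scale, which understates changes of low genes. The procedure was tested on simulated data. Only genes with Ctrl levels above those of all the receptors were changed there, so it does not show how changes of genes this low are found. Receptor pairs were compared by exact permutation.

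Named genes were the 9 receptors, 9 peptide genes, up to 3 rising and 3 falling called members of each signalling list by adjusted p, and the most similar profiles. Genes named among markers or otherwise were chosen after their values were seen. The fit was repeated with pseudocounts of 0.1, 0.5 and 5, with no filter or 5 FPKM, 4 scalings, limma options, a replicate block and each library left out. Figures used matplotlib 3.10.9. No sequences were used here.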

Additional observations from a re-analysis of the deposited data

Results flagged for a closer look

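Of 46 named genes checked for a ScOE library far from the other 3, 3 were picked out, and chance picks out about 1 group in 20. AstA-R1 was at 4.40 FPKM in ScOE 3, where the gap to the next library was 0.853 of the range of the group. CG44245 was at 6.93 FPKM in the same library, with a gap of 0.903 of the range. It was checked only because its profile over these libraries was the most like that of AstA-R1. Its flag is therefore not separate from that of AstA-R1. The RGS gene loco was at 152 FPKM in ScOE 1, with a gap of 0.86 of the range.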

How the results depend on the processing

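The NPFR call held in all 20 alternatives, with log2 fold changes of 4.11 to 7.71. sNPF-R passed with library weights (1.13), robust moderation (0.89), no variance trend (0.89), totals made equal (1.28) and scaling to the trimmed mean (0.92) or the upper quartile (0.97), and ranged from 0.68 to 1.19 with libraries left out. AstA-R1 lost its call with a pseudocount of 5 (0.37), no filter (1.03) and quantile normalization (0.51), and ranged from 0.73 to 1.19 with libraries left out; CCHa1-R lost it with quantile normalization (0.43). With pseudocounts of 0.1, 0.5 and 5 the untested differences were 3.39, 1.83 and 0.37 for AstC-R1 and 2.29, 1.08 and 0.17 for AstC-R2; they were 0.47 and 0.12 for TkR86C at 0.1 and 0.5, and -0.05 for TkR99D and 0.08 for CCHa2-R at 0.1. Receptors called higher numbered 1 with a minimum of 5 FPKM and 1 with quantile normalization, and 2 to 3 with libraries left out. No receptor pair passed under another pseudocount, where a pair can pass only if most of the other pairs also have the smallest possible p. With a library left out, the exact permutation test has too few splits of the labels for any pair to reach 0.05. Those runs therefore cannot decide whether a pair holds (smallest adjusted p 0.133 in that test). Other peptide receptors called higher numbered 6 with no filter and 0 with a minimum of 5 FPKM, which leaves fewer genes.

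The summed FPKM of all genes did not overlap between the groups. It was 1382500, 1059300, 1288600 and 1218200 in ScOE 1 to 4, against 2265500, 1925000 and 2614300 in Ctrl 1 to 3. Equal FPKM totals gave 4454 genes higher and 280 lower (94.1% higher), against 1484 and 1796 (45.2%) as deposited. Upper quartile scaling gave 60.5% higher and shifted the median by 0.16. With equal totals Galphai (0.29), CrebB (0.00) and Itpr (0.06) lost their direction, subunits numbered 9 higher and 0 lower, effectors 10 and 1, and regulators 3 higher. Library weights gave 5 subunits higher and 2 lower, and quantile normalization 0 lower. Effectors numbered 3 higher with a minimum of 5 FPKM, and 2 lower with upper quartile, trimmed-mean or quantile scaling; leaving out libraries gave 2 to 4 lower, and 0 to 1 regulators higher, 0 with no filter. Among the peptide genes, natalisin lost its call with equal totals (-0.97) and sNPF with quantile normalization (1.02), and NPF passed with equal totals (2.98) and library weights (1.81). The cause of these changes was not tested.

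With the replicate number as a block, sNPF-R passed (1.01, adjusted p = 0.0312), as did NPF (1.89, adjusted p = 0.0222), 3 effectors were higher and 2 lower, and 0 regulators were higher. Deviations of same-numbered libraries correlated at 0.524, -0.0406 and 0.0816, and those of differently numbered libraries at -0.598 to 0.461. The value of replicate 1 was the highest, and the other same-numbered values lay within the range of the rest. The numbers were not taken to pair the libraries, and these values do not decide whether they do.

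Absolute depth is unknown, so the lowest levels have no counting error here. The low receptors rest on few fragments, and with 3 and 4 libraries a miss of the threshold does not show equal levels.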

Other observations

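With no filter on low values, the other peptide receptors called higher in ScOE besides TrissinR and ETHR were AstA-R2, AkhR, CCAP-R and MsR2, named here after their values were seen. AstA-R2, a further receptor of allatostatin A, was at 0.441, 0.523, 1.22 and 1.62 FPKM in ScOE 1 to 4, against 0.0231, 0.0265 and 0.108 FPKM in Ctrl 1 to 3 (log2 fold change 0.85 ± 0.22, SE; adjusted p = 0.0391 in limma). AkhR, the receptor of adipokinetic hormone, was at 0.241 ± 0.0963 FPKM in ScOE and 0.0188 ± 0.0177 FPKM in Ctrl (SD, n = 4 and 3; adjusted p = 0.0214 in limma). CCAP-R and MsR2 averaged 0.229 and 0.184 FPKM in ScOE, against 0.0593 and 0.00667 FPKM in Ctrl. These levels are far below that of NPFR, and the calls rest on a fit that includes genes near 0. CNMaR had lower values in every ScOE library than in any Ctrl library (0.134 ± 0.0463 FPKM in ScOE and 0.335 ± 0.127 FPKM in Ctrl, SD, n = 4 and 3), with an adjusted p of 0.0572 in limma with no filter.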
